A study of Mus musculus with 4 samples.

Results

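A set of 4119 autosomal regions was examined that were listed as open in both classical dendritic cells type 1 (cDC1) and plasmacytoid dendritic cells (pDC) of the mouse. All had clearly more sequencing tags in cDC1. They were drawn from 93615 merged regions of open chromatin, of which 39152 were ranked. A region entered the ranking if it overlapped an interval of open chromatin and a footprint of each cell type. The footprint with the most tags was then taken from each cell type, the cDC1 count was divided by the pDC count, and the quotient was divided by its median over the ranked regions (3.23). This quotient is called the scaled ratio, and the 4119 members are the regions with a scaled ratio of at least 2, which is 10.5% of those ranked. In unscaled counts the limit was 6.46 cDC1 tags to 1 pDC tag.

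The assay was Omni-ATAC-seq, in which the transposase Tn5 cuts accessible DNA and the cut sites are sequenced. Both cell types were grown from mouse bone marrow in a 2-step culture with Flt3 ligand and were then sorted by flow cytometry, cDC1 as CD11c+ CD11b+ XCR1+ cells and pDC as CD11c+ CD11b- B220+ cells. There were 2 replicate samples of each cell type, and whether they came from separate cultures or animals is not given in the sources used. The authors merged the replicate libraries before footprinting, and every value below comes from 1 list per cell type. No replicate error can be given and no test was made, and the 95% intervals cover counting error only. Genotype, strain and age of the mice were not used here.

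A region of open chromatin is a stretch where nucleosomes are displaced or loose, most often at a promoter or an enhancer. A protein that sits on the DNA within such a stretch protects a few bases from the transposase, and this dip in the cut signal is called a footprint. cDC1 are the dendritic cells best known for cross-presentation, the display of antigen taken up from other cells to cytotoxic T cells, and pDC are known for secreting large amounts of type I interferon. The regions below are given by position in the mouse build mm9, because the annotation in hand was of another build. The genes beside them, their sequences and the marker genes of both cell types were therefore not analysed here.

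Most members lay close to the limit, and few were far beyond it. The scaled ratio had a median of 2.63 among members, with quartiles of 2.25 and 3.33 and a maximum of 12.3. It was between 2 and 3 in 2717 members (66.0%), between 3 and 4 in 827, between 4 and 6 in 453, between 6 and 8 in 95 and above 8 in 27. These values chose the members and are given as a description. The exact 95% interval of the scaled ratio of a single region, from its tag counts, lay wholly at or above 2 in 2269 members (55.1%). The same counts chose the members, and each is the largest of its region. These intervals make no allowance for that choice, here or where regions are named below. The 5 members nearest to the limit had scaled ratios of 2.0000 to 2.0009, and the 5 regions that just missed it had 1.9987 to 1.9996. For example, chr6:113631203-113631829 was a member with 1260 cDC1 tags and 195 pDC tags, whereas chr4:59876658-59877200, with 814 and 126, was not. At the other end of the ranking, 5371 regions (13.7%) were at least 2-fold higher in pDC, and 29662 lay between the limits.

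**Figure D1:**
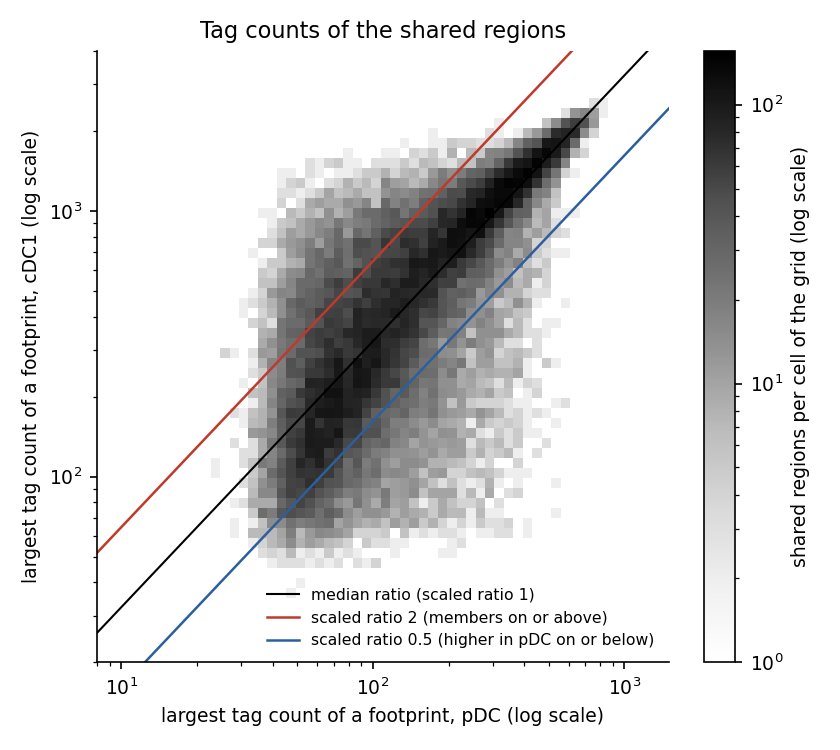
Largest tag count of a footprint in pDC, on the x axis, and in cDC1, on the y axis, both log scales, for the 39152 ranked regions; the shade gives the number of regions in each cell of the grid. The black line is the median ratio of 3.23, and members lie on or above the red line, mostly at pDC counts around their median of 72 and close to the line.

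Members were both higher than usual in cDC1 and lower than usual in pDC. The largest tag count of a member had a median of 702 in cDC1 (quartiles 508 and 940), against 411 over all ranked regions. In pDC the median was 72 (quartiles 54.5 and 101), against 118. The rule is built from these counts and sets both directions. The median counts were 634 in cDC1 and 81 in pDC at scaled ratios of 2 to 3, and 1319 and 44 above 8. The highest pDC count was 324, and the lowest was 14. Tn5 insertions were pooled over many cells, so that fewer open cells and less opening per cell cannot be told apart.

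The 10 members with the largest scaled ratio were spread over 7 chromosomes. The first was chr8:96702617-96703304, a region of 688 bp with 1672 cDC1 tags and 42 pDC tags (scaled ratio 12.3, exact 95% interval 9.08 to 17.2). It held 6 cDC1 footprints and 1 pDC footprint, whose centre lay 178 bp from that of the top cDC1 footprint and 164 bp from the pDC summit. By fold enrichment its scaled ratio was 2.03. The second, chr2:125429232-125430157, had 1370 and 36 tags (11.8, 8.47 to 16.9). At chr1:179498447-179499032 (1346 and 43 tags) a single cDC1 footprint had its centre 2 bp from the pDC footprint with the most tags, and the scaled ratio was 9.69. At chr11:34289368-34290026 (1371 and 44 tags) the top footprints lay 9 bp apart. Its 2 pairs of overlapping footprints, which may include a top footprint, had scaled ratios of 11.1 and 11.9. The other regions were chr13:30830200-30830804 (1300 and 42), chr2:38364382-38365088 (1807 and 59), chr13:22126889-22127901 (1498 and 50), chr11:53711614-53712157 (1258 and 42), chr16:11343294-11343860 (919 and 31) and chr3:88543688-88544321 (1380 and 47). In 8 of these 10 regions the pDC peak was weak, with a −log10 q of 2.38 to 7.86; the exceptions were the first (17.5) and chr13:22126889-22127901 (72.3).

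The members richest in tags formed a different group. The most cDC1 tags were found at chr17:34430285-34431021, with 2319 against 148 in pDC (scaled ratio 4.85, 4.11 to 5.77). The next was chr9:44204684-44205579, with 2202 and 324 tags (2.10, 1.87 to 2.37), which also had the most pDC tags of all members. Of the 10 members with the most pDC tags, all had scaled ratios of 2.24 or less and pDC counts of 244 to 324. They included chr16:90143588-90144746 (1975 and 302 tags), chr5:150078167-150079392 (2004 and 290), chr19:4231411-4232538 (1766 and 273) and chr17:34423991-34425123 (1794 and 268). In all 10 of them the lower end of the counting interval was below 2.

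**Figure D2:**
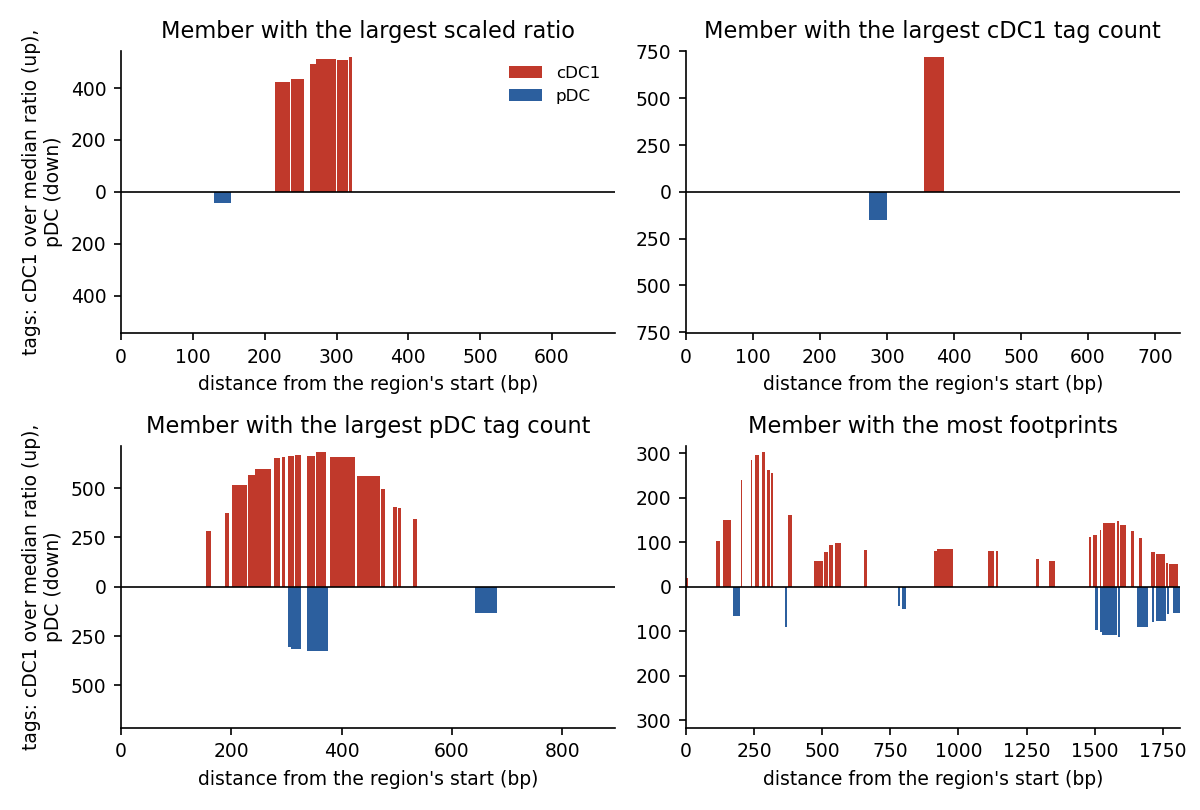
Footprints of 4 members by distance from the start of the region (x axis, bp); bars span each footprint, with cDC1 tags divided by the median ratio of 3.23 drawn upwards and pDC tags drawn downwards. At the member with the largest scaled ratio the only pDC footprint (42 tags) lies to the side of the cDC1 footprints, whereas at the member with the most pDC tags the tallest footprints of both cell types share a position; at the member with the most footprints they are 1304 bp apart.

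The peak calls, which came from the same reads and within which the paper sought the footprints, differed in the same direction. The largest −log10 q of a member in cDC1 had a median of 179, against 84.2 over all ranked regions, while in pDC it was 7.86 against 16.3. In pDC 2510 members (60.9%, Wilson interval 59.4 to 62.4%) had a −log10 q below 10, compared with 35.8% of all ranked regions. The paper's methods give a filter of peaks at a q-value above 10. If a −log10 q is meant, the lists used here were not filtered in this way, as members reached down to 1.30 in pDC. Where a −log10 q of at least 10 was asked of both lists, 1486 regions were members. In cDC1 4041 members (98.1%) reached a −log10 q of 50, whereas in pDC 35 did (0.850%); over all ranked regions 62.6% and 21.1% did. The fold enrichment at the summit had a median of 10.5 in cDC1 and 3.50 in pDC, and it was higher in cDC1 in 4114 of 4119 members. Over all ranked regions it was higher in cDC1 in 83.3%. After division by its median over the ranked regions, the ratio of fold enrichments was at least 2 in 1790 members (43.5%, 42.0 to 45.0%) and in 5.72% of all ranked regions. These values come from the reads that chose the members and describe them.

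Less of a member was listed as open in pDC than in cDC1. The merged regions had a median width of 610 bp, against 599 bp over all ranked regions. The cDC1 intervals had a median of 603 bp and the pDC intervals of 359 bp, where the medians over all ranked regions were 556 and 458 bp. Among regions of like strength in cDC1, members were narrower than the regions between the limits only above a −log10 q of 100. At 50 to 100 the median widths were 542 bp in members and 541 bp in the regions between the limits. At a cDC1 −log10 q of 100 to 200 the median widths were 582 and 715 bp, at 200 to 400 they were 634 and 907 bp, and above 400 they were 707 and 1006 bp. The median number of cDC1 footprints in the classes above 100 was 7, 7 and 6 in members and 8, 10 and 10 in the regions between the limits. At 50 to 100 it was 7 in both. The cDC1 interval was the wider in 4014 members (97.5%), compared with 76.6% of all ranked regions. An interval is called where the signal passes a limit, and the part of the tag count in these widths was not tested. A single interval of each cell type made up 4011 members (97.4%), close to the 96.9% of all ranked regions. The widest member was chr7:121558056-121560224, with 2169 bp, 567 cDC1 tags and 61 pDC tags, and it held more footprints in pDC (21) than in cDC1 (13).

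Strong cDC1 regions without a strong pDC counterpart took 2 forms, members and regions with no pDC interval, and their shares changed with strength. Among autosomal cDC1 regions with a −log10 q of at most 10, none of 20507 was a member and 82.0% had no pDC interval. Members made up 0.573% at a −log10 q of 25 to 50, 5.38% at 50 to 100, 17.2% at 100 to 200 and 17.8% (17.0 to 18.7%) at 200 to 400. Above 400 the share was 9.77% (8.77 to 10.9%). The share without a pDC interval fell through the same classes, to 23.0% at 100 to 200, 7.99% at 200 to 400 and 1.46% above 400. From a −log10 q of 200 upwards, members were thus the more numerous form. The rule asks for a pDC interval and an unscaled ratio of 6.46, which leaves few weak cDC1 regions that can qualify.

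**Figure D3:**
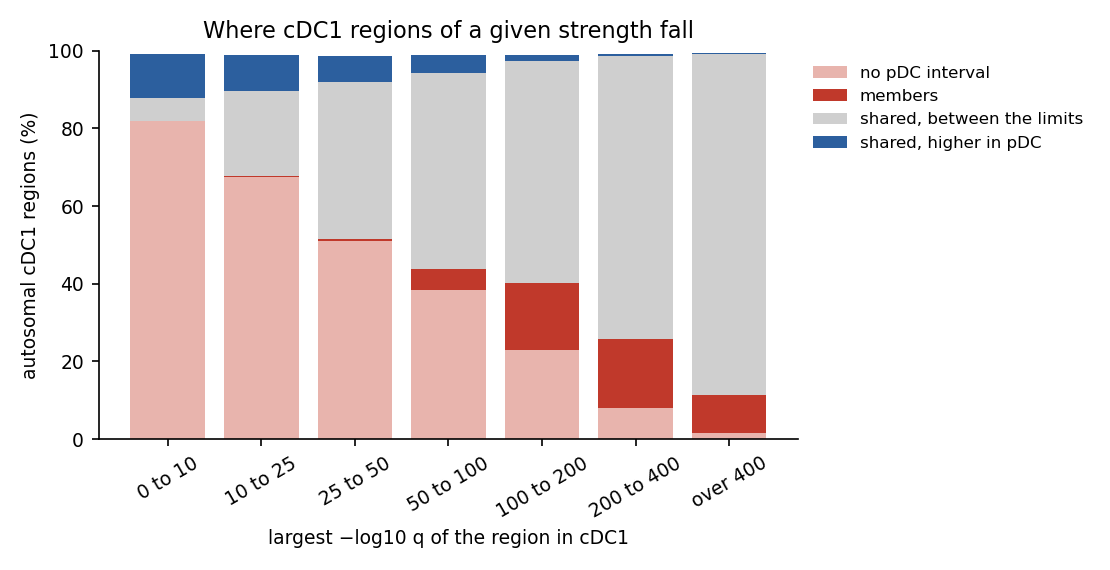
Share of autosomal cDC1 regions (y axis, percent) that had no pDC interval, were members, lay between the limits or were higher in pDC, by the largest −log10 q of the region in cDC1 (x axis). Members grow from 0% in the weakest class to 17.8% at 200 to 400 and make up 9.77% above 400; the small remainder lacked a footprint of one cell type.

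Around the top cDC1 footprint both signals of a member peaked, and that of cDC1 was higher and steeper. The median tag count of cDC1 footprints was 700 at the centre, 494 and 484 at 100 bp on either side, and 123 and 137 at 200 bp. That of pDC footprints was 76 at the centre, 59 on both sides at 100 bp, and 40 and 39 at 200 bp. Divided by the median ratio, the cDC1 profile was 217 at the centre and 38.1 and 42.4 at 200 bp. There it was close to the pDC profile of 40 and 39. In regions between the limits the scaled cDC1 profile was level with pDC at the centre (149.5 against 152) but below it at 200 bp, with 37.5 against 66 on one side and 39.6 against 60 on the other. Members were thus higher in cDC1 than those regions at 200 bp as well as at the centre, relative to pDC. The centre was chosen on the cDC1 tags, which favours cDC1 at that point. A steeper cDC1 profile was not particular to members. Over all ranked regions it fell from 446 tags at the centre to 110 and 109 at 200 bp, and that of pDC from 135 to 61 and 56.

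**Figure D4:**
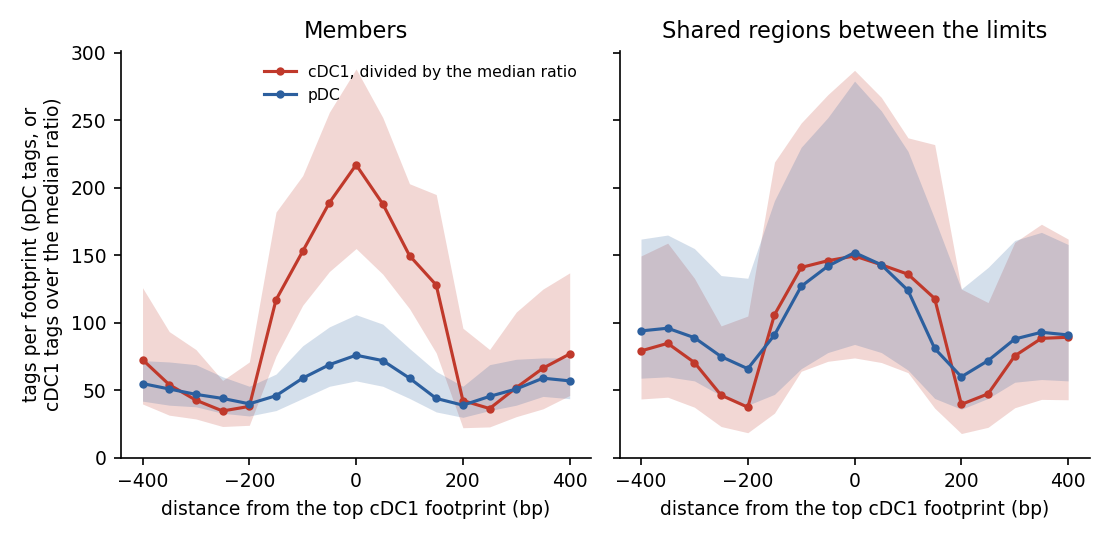
Median tag count of footprints (y axis) by distance from the top cDC1 footprint of the region (x axis, bp), for members and for regions between the limits; cDC1 tags are divided by the median ratio of 3.23 and bands are quartiles over footprints. In members the scaled cDC1 profile reaches 217 at the centre and meets the pDC profile, which reaches 76, at 200 bp, whereas in regions between the limits the curves meet at the centre and the pDC profile is the higher one at 200 bp (60 against 39.6 on the right).

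Both cell types had their top footprint at nearly the same place in most members. The centres were a median of 32 bp apart (27 bp over all ranked regions). They were at most 50 bp apart in 2686 members (65.2%), at most 100 bp in 3522 (85.5%) and more than 200 bp in 299 (7.26%). In the last group the rule compared different positions. Over all ranked regions the shares were 69.9%, 87.2% and 7.31%, so this nearness was not particular to members. Measured against the strongest summit of its own list, the top cDC1 footprint lay more than 100 bp away in 120 members (2.91%), and the top pDC footprint in 607 (14.7%, 13.7 to 15.9%). The corresponding shares over all ranked regions were 7.36% and 10.7%.

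The peak calls showed less of a contrast than the tags, and more so where the top pDC footprint lay away from the pDC summit. In members with such a distant pDC footprint the median scaled ratio was 2.77 by tags and 1.75 by fold enrichment. Where that footprint was near the summit, the medians were 2.60 and 1.92. Of the 607 members with a distant pDC footprint, 41 (6.75%, 5.02 to 9.04%) had a scaled ratio of fold enrichments below 1, compared with 60 of 3512 (1.71%, 1.33 to 2.19%) where the pDC footprint was near the summit. One such region was chr13:22126889-22127901, seventh by scaled ratio. It had 1498 cDC1 tags and 50 pDC tags, but a pDC −log10 q of 72.3 and a scaled ratio of fold enrichments of 0.870, and its single pDC footprint lay 227 bp from the top cDC1 footprint. A like case was chr7:133539961-133540751, with 1968 and 76 tags. Its −log10 q was 782 in cDC1 and 162 in pDC, its scaled ratio of fold enrichments was 1.00, and its single pDC footprint lay 343 bp away. Of the 35 members with a pDC −log10 q of at least 50, 11 had a distant pDC footprint.

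Footprints were more numerous in cDC1 than in pDC within members. The median was 7 in cDC1 and 5 in pDC, and over all ranked regions it was 7 and 6. There were more footprints in cDC1 in 2850 members (69.2%), fewer in 920 and the same number in 349; over all ranked regions cDC1 had more in 55.1%. A single pDC footprint was found in 357 members (8.67%, against 4.11%). The number per 1000 bp of interval was alike, with medians of 10.9 in cDC1 and 12.0 in pDC. The member with the most footprints was chr1:137179062-137180873, with 34 in cDC1 and 13 in pDC. Its top footprints lay 1304 bp apart, and its 6 pairs of overlapping footprints had scaled ratios of only 0.830 to 1.30, against 2.69 for the region. At chr6:29984998-29985792, which held 23 and 24 footprints, the pairs ran from 1.32 to 4.29.

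Of the cDC1 footprints in members, a smaller share had a counterpart in pDC than over all ranked regions. Of 31339 cDC1 footprints in members, 36.6% (36.1 to 37.1%) had at least 50% of their bases in a pDC footprint, compared with 48.3% over all ranked regions and 45.4% in the regions higher in pDC. Of 20911 pDC footprints in members, 49.9% (49.3 to 50.6%) were shared with cDC1 by the same limit, and 53.0% over all ranked regions. The regions higher in pDC were the mirror of this, with 37.2% (36.6 to 37.7%) of their pDC footprints shared. Footprint calls depend on the number of cuts, and pDC had a median tag count of 62 per footprint in members, against 109 over all ranked regions. The paper sought footprints inside peaks, and the pDC intervals of members had a median of 359 bp, against 603 bp in cDC1. The part of the tag counts and of the interval widths in the lower sharing was not tested.

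Other footprints of a member pointed the same way, but less so with distance. Footprints of the 2 cell types were paired if each shared at least 50% of its bases with the other, and pair ratios were divided by their own median over all pairs (3.27). A pair was found in 2999 members (72.8%), compared with 80.1% of all ranked regions. Of 4270 pairs that used neither top footprint, 3350 (78.5%, 77.2 to 79.7%) had a scaled ratio of at least 2, compared with 5.84% of such pairs over all ranked regions. However, neighbouring footprints carried nearly the same tags. Within members, the median difference between cDC1 footprints within 50 bp of each other was 1.10-fold, and it was 1.38-fold for those 100 to 150 bp apart and 3.96-fold for those 200 to 300 bp apart. The sources used here do not state how wide a window was counted for each footprint, and near pairs may count the same reads as the top footprints.

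The pairs were therefore split by their distance from the nearer of the top footprints. Up to 100 bp, 83.5% (82.2 to 84.6%) of 3700 pairs in members reached a scaled ratio of 2, against 6.59% over all ranked regions. Between 100 and 200 bp, 56.7% (51.0 to 62.2%) of 298 did, against 3.51%. Beyond 200 bp, 93 of 272 pairs did (34.2%, 28.8 to 40.0%), and 219 (80.5%) were above 1. Over all ranked regions, 2.59% of the pairs beyond 200 bp reached 2 and 42.9% were above 1. The median scaled ratio beyond 200 bp was 1.67 in members and 0.952 over all ranked regions. By these pairs a member was thus still higher in cDC1 as a rule, but most of them did not reach the limit. Only 219 members contributed such a pair, so this value speaks for a small and wide subset. The profile of all footprints of members around the top cDC1 footprint did not show this at every distance. At 250 bp the scaled cDC1 profile was below that of pDC, with 34.7 against 44 and 36.5 against 45.5. At 400 bp it was above, with 72.7 against 55 and 76.9 against 57.

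Members tended to lie next to other members. Another ranked region lay within 10 kb of 2623 members, and the nearest one was itself a member in 497 cases (18.9%, 17.5 to 20.5%). The same was found for 10.9% (10.5 to 11.3%) of all ranked regions, members included, and for 5.62% (4.86 to 6.49%) of the regions higher in pDC. The nearest region was at least 2-fold higher in pDC for 6.40% of members, compared with 12.7% of all ranked regions. The median scaled ratio of the nearest region was 1.19 for members and 1.01 over all ranked regions, and it was above 1 for 65.5% of members. When regions less than 1 kb apart were left out, 18.2% (16.7 to 19.9%) of members had a member as the nearest region, against 11.3%.

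The excess was greatest over short gaps and smaller, but still present, beyond 10 kb. Taking the next ranked region on each side, 22.6% (18.8 to 26.9%) of the neighbours of members at up to 1 kb were members, and 27.6% (23.5 to 32.2%) at 1 to 2 kb. The shares were 17.8% at 2 to 5 kb, 15.7% at 5 to 10 kb, 13.8% at 10 to 25 kb and 12.6% at 25 to 50 kb. Over all ranked regions the corresponding shares were 8.90%, 12.3%, 11.4%, 11.2%, 10.8% and 10.3%. At 50 to 100 kb the shares were 11.1% (9.01 to 13.7%) and 9.46%, whose intervals overlap, and at 100 to 1000 kb 12.9% (10.3 to 16.0%) and 8.86%. Each couple of neighbouring members was counted from both sides, so the intervals by gap are too narrow. Whether the excess at the largest gaps goes beyond counting error was not tested. The share also grew with the ratio of the region itself. It was 17.2% (15.6 to 19.1%) for scaled ratios of 2 to 3, 22.4% (19.0 to 26.2%) for 3 to 4 and 22.8% (18.6 to 27.5%) above 4. For regions with a scaled ratio of 0.8 to 1.25 it was 10.2%.

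Members were also more often near an interval that was listed in cDC1 alone. Such an interval lay within 10 kb of 2801 members (68.0%, 66.6 to 69.4%), compared with 60.0% (59.5 to 60.5%) of all ranked regions and 53.0% of the regions higher in pDC. An interval listed in pDC alone lay within 10 kb of 667 members (16.2%, 15.1 to 17.3%), compared with 19.5% and 28.4%. The cDC1-only intervals numbered 41513 on the autosomes and the pDC-only ones 10124, so the 2 shares cannot be set against each other. Along the whole range of the scaled ratio, the share near a cDC1-only interval rose from 51.2% below 0.25 to 60.2% at 0.8 to 1.25 and 67.9% at 2 to 3. It was 68.0% at 3 to 4 and 68.5% above 4.

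**Figure D5:**
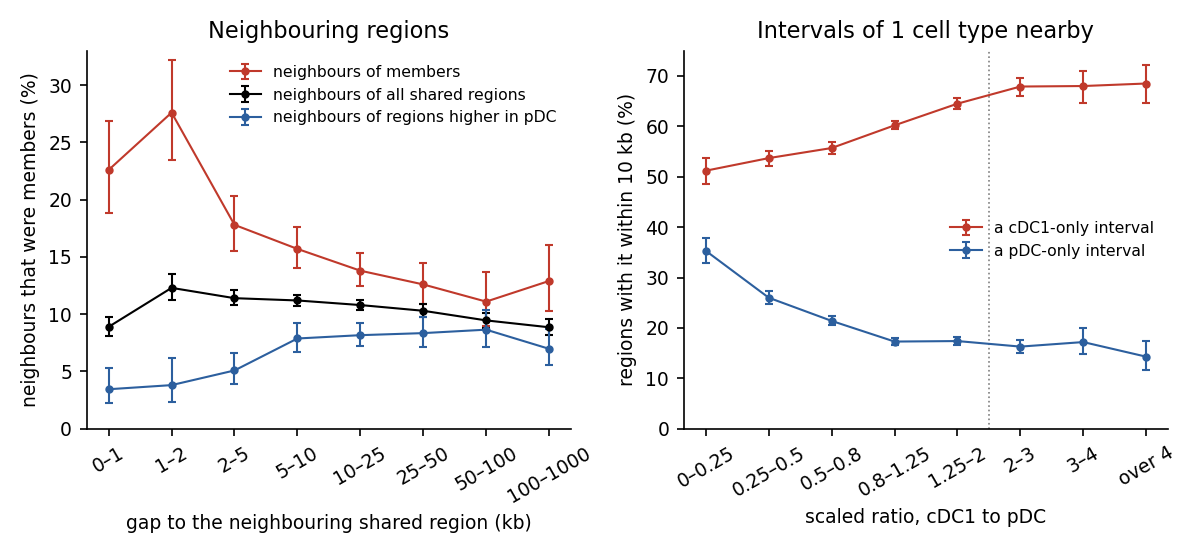
Left, share of neighbouring ranked regions that were members (y axis, percent) by the gap between the regions (x axis, kb); right, share of ranked regions with an interval of 1 cell type within 10 kb (y axis, percent) by scaled ratio (x axis, members to the right of the dotted line). Bars are 95% Wilson intervals; the left curve of members falls from 27.6% at 1 to 2 kb to 12.6% at 25 to 50 kb, and on the right the cDC1-only curve rises to 68.5% while the pDC-only curve falls from 35.3% to 14.3%.

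The contrasts were also present among regions of like strength in cDC1. At a cDC1 −log10 q of 100 to 200, 17.3% (15.1 to 19.6%) of members had a member as the nearest region within 10 kb, against 10.6% (9.62 to 11.6%) of the regions between the limits. At 200 to 400 the shares were 19.8% (17.3 to 22.6%) and 10.6% (9.63 to 11.7%). A cDC1-only interval lay within 10 kb of 67.2% (65.0 to 69.4%) of members and 62.6% (61.3 to 63.8%) of the regions between the limits at 100 to 200, and of 66.2% (63.7 to 68.6%) and 60.2% (58.9 to 61.4%) at 200 to 400. For intervals listed in pDC alone the order turned with strength. Their share was lower in members at 100 to 200 (15.0% against 19.4%), and higher above 400 (20.3%, 16.1 to 25.2%, against 14.6%, 13.3 to 16.0%).

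Runs of members, each at most 25 kb from the one before, were mostly short. In all, 1255 members (30.5%) belonged to 547 runs of 2 or more, 124 runs had at least 3 members and 23 had at least 4, whereas 2864 members stood alone. How many runs a set of this size would form irrespective of position was not computed. The longest run spanned 68.2 kb at chr17:34375538-34443733 and contained 11 members among 12 ranked regions. Their cDC1 counts ran from 602 to 2319 and their pDC counts from 81 to 268. The scaled ratio was highest at chr17:34430285-34431021 (4.85), followed by chr17:34441658-34442157 (1763 and 124 tags, 4.40) and chr17:34399852-34400608 (1966 and 176, 3.46). The same stretch held 12 cDC1-only intervals and none of pDC alone. It contained the member with the most cDC1 tags. By fold enrichment the contrast was weaker: at chr17:34430285-34431021 the scaled ratio of fold enrichments was 1.06, and at chr17:34423991-34425123 it was 0.621, with an enrichment of 6.04 in cDC1 and 6.73 in pDC.

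The other 4 runs named had 5 or 6 members each. At chr15:61814852-61843788 all 6 ranked regions were members, with cDC1 counts of 511 to 1123 and pDC counts of 63 to 110. At chr6:38850613-38891491 5 of 6 were, and the first of them, chr6:38850613-38851718, had 1214 and 59 tags (scaled ratio 6.37). At chr12:25966260-26015512 5 of 9 ranked regions were members, among them chr12:26014681-26015512 with 1752 and 172 tags. The run at chr12:112654956-112681082 had 5 of 8, led by chr12:112675509-112676372 with 1032 and 67 tags (4.77). The 5 runs were picked for their many members and held few other ranked regions, none of which was at least 2-fold higher in pDC.

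Members were found on every autosome at similar rates. Their share of the ranked regions ran from 9.09% (7.90 to 10.4%) on chromosome 8 to 11.9% on chromosomes 1, 10 and 12. The Wilson interval lay above the share over all autosomes for 2 of the 19 chromosomes and below it for 1. Chromosome 17, which holds the longest run, had 189 members among 1846 ranked regions (10.2%, 8.94 to 11.7%).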

How the data were processed

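Omni-ATAC-seq was analysed in 2 cDC1 and 2 pDC samples, which the authors merged by cell type. As their methods and processing notes state, reads were trimmed (Trim Galore), aligned to mm9 (Bowtie2), filtered (SAMtools) and used for peak calling (MACS2) and footprinting (HINT-ATAC), with versions not given in the sources used here. Positions went past the GRCm38 ends on 8 of 21 chromosomes, so no GRCm38 sequence or annotation was used; planned gene, motif and promoter results were not computed. The authors' deposited values are, per summit, a fold enrichment, a −log10 q and a summit position, and per footprint a tag count, read as not scaled for depth.

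Peaks with the same ends were joined, lists were merged (bedtools 2.31.1), and the rest was computed in Python 3.11.15 (numpy 2.4.6, pandas 2.3.3, scipy 1.17.1, matplotlib 3.10.9). Shares have 95% Wilson intervals and ratios of tag counts exact ones. Neighbouring regions are not independent, reads lack molecular identifiers and both fragment ends may be counted, so intervals may be too narrow. Total read depth cannot be had from the lists; the tag count behind each ratio is given instead. Steps were tested on simulated data.

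Regions named were the 10 members with the largest scaled ratio, most cDC1 tags and most pDC tags, the 5 widest, the 5 with most footprints, the 5 on either side of the limit and the 5 runs with most members, without chromosome 18. The members and lists were chosen with earlier results of these data known.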

Additional observations from a re-analysis of the deposited data

Results flagged for a closer look

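Chromosome X lay outside the rule, which ranked autosomes only, and it held regions of the same kind. Of 675 regions on it with an interval and a footprint of each cell type, 52 had a scaled ratio of at least 2 when the autosomal median was used (7.70%, Wilson interval 5.92 to 9.96%), compared with 10.5% of the autosomal regions. Another 64 (9.48%) were at least 2-fold higher in pDC, compared with 13.7%, and the median scaled ratio was 1.08. The difference was not tested, since there is 1 merged list per cell type.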

How the results depend on the processing

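No paired analysis was possible because the replicates of each cell type were merged before deposit, and for the same reason no replicate was left out. Motif and promoter alternatives were not run, as no mm9 genome was used. The direction against all ranked regions held for the neighbouring members and cDC1-only intervals in each alternative run. The limits on the distance between top footprints, on their distance from the summits (both 100 bp) and on neighbours at 1 to 10 kb were added after the data were seen.

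The number of members was 7871 with a limit of 1.5, 1402 with 3 and 1486 where the −log10 q had to reach 10 in both lists; under the other 9 alternatives it ran from 2871 to 4366. The median −log10 q in pDC moved to 8.84 and 8.50 with the median and mean tag count of footprints, 8.69 with the richest pair, 9.93 and 6.16 with limits of 1.5 and 3, 16.3 with a −log10 q of at least 10, and 10.6 where the intervals shared at least 50% of the region. The share of other pairs at the limit moved to 82.9% (scaled by summed tags), 80.2% (by pairs), 66.4% (median), 71.2% (mean), 81.7% (richest pair), 74.4% (limit 3), 73.9% (50% of the region), 80.9% (top footprints near each other) and 80.0% (near the summits). With the richest pair, the median and the mean, the pairs counted can include footprints that chose the members. Those shares are thus partly set by the choice. The share of cDC1 footprints shared with pDC moved to 39.6% (median), 40.1% (mean), 45.2% (richest pair), 39.6% (limit 1.5), 33.4% (limit 3), 41.5% (−log10 q), 40.9% (50% of the region), 39.6% and 38.3% (both distance limits) and 44.6% when 1 bp sufficed. The highest share on an autosome was 23.5%, 4.51%, 7.25% and 9.76% with limits of 1.5 and 3, the −log10 q limit and the 50% limit. The share of members with a member as the nearest region was 30.6% (21.2% over all ranked regions) with a limit of 1.5, 10.6% (3.50%) with 3, 13.5% (6.03%) with the −log10 q limit, 21.5% (10.9%) within 5 kb and 17.1% (10.8%) within 50 kb. A cDC1-only interval lay within 5 kb of 43.6% of members (38.4% of all) and within 50 kb of 97.2% (94.1%). Of the reported members, 84.8% were members by the median tag count. By the richest pair 2625 (63.7%) were, but only 2999 of them had a pair and could qualify. The cause of these shifts was not tested, apart from those with another limit on the ratio, which change the number of members by construction.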
